A study of Mus musculus with 6 samples.

Results

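The 10 genes described here belong to the cell cycle. Most act at the step at which a cell commits to division: Cdk6 and Cdk4, the D cyclins Ccnd1, Ccnd2 and Ccnd3, the inhibitors Cdkn1a, Cdkn1b and Cdkn2c, and the retinoblastoma gene Rb1. The last, Aurkb, encodes a kinase of mitosis. The data are lists of open-chromatin regions (peaks) from ATAC-seq, in which the Tn5 transposase cuts accessible DNA, in mouse microglia, the resident macrophages of the brain. A peak was counted for one of these genes if its midpoint lay inside the gene or was nearer to an end of it than to any other protein-coding gene, up to 100 kb away, in the mm10 RefSeq annotation. By this rule 32 of 12105 listed peaks belonged to them. Of these, 27 came from the list of 8615 cKO-specific peaks and 5 from the list of 3490 cWT-specific peaks.

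The microglia came from brains of C57BL/6J mice with a labelled age of 8 weeks. Both groups carried Tmem119-CreERT2, a recombinase under a microglial gene that works only in the presence of tamoxifen, and both received tamoxifen for 7 days from 7 to 8 weeks of age. The cKO mice were Mir137 loxP/loxP, so that the microRNA gene Mir137 can be deleted in the cells that express the recombinase; the cWT mice were Mir137 +/+. The labels list 3 libraries per genotype, from about 50000 sorted cells each, and the series states n = 4 mice without saying which libraries they gave. Each deposited list stands for a whole genotype, so no value per library exists here, the depth is unknown, and no difference could be set against the spread between replicates. Intervals given below are exact 95% Clopper-Pearson intervals and cover counting error only. Among 10 microglial marker genes 8 (80.0%) had a cKO-specific and 2 (20.0%) a cWT-specific peak by the same rule. Of all coding genes, 23.8% and 12.3% did. In 6 marker lists of other brain and blood cells, of 5 genes each, from 1 to 4 genes (20.0% to 80.0%) had a cKO-specific peak. The astrocyte and vascular lists thus reached the same 80.0% as the microglial one. Since the lists hold only peaks named as specific to a genotype, these counts do not measure purity.

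In the textbook account, a D cyclin binds Cdk4 or Cdk6, and the pair phosphorylates the Rb protein, which otherwise holds back the E2F transcription factors of DNA replication genes. Cdkn2c (p18) belongs to the INK4 inhibitors, which bind Cdk4 and Cdk6 directly, while Cdkn1a (p21) and Cdkn1b (p27) bind cyclin-kinase complexes. Adult microglia divide rarely and can re-enter the cell cycle after injury or depletion. Cdk6 is also one of the genes reported as targets of miR-137. The ATAC-seq lists measure accessible DNA near these genes, not their RNA, protein or the rate of division.

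The microRNA that the cKO mice are engineered to lose, and the promoter stretches that carried a cKO-specific peak, are shown first. For miR-137-3p (RefSeq, GRCm38.p6, plus strand of chromosome 3, chr3:118433901-118433923) the capitals mark the seed, bases 2 to 8, through which a microRNA pairs with its targets. For Cdkn1a (chr17:29093519-29093768) and Ccnd3 (chr17:47504801-47505050) the 250 bases before an annotated transcription start are given on the plus strand, 5′ to 3′, and the capitals mark the bases inside the listed peak.
mmu-miR-137-3p: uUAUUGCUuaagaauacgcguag
Cdkn1a: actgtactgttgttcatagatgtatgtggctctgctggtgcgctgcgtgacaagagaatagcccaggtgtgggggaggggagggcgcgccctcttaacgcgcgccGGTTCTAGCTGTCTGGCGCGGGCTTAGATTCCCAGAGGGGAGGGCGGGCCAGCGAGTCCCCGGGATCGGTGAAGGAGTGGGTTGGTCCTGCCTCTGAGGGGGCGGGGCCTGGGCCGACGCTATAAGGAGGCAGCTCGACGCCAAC
Ccnd3: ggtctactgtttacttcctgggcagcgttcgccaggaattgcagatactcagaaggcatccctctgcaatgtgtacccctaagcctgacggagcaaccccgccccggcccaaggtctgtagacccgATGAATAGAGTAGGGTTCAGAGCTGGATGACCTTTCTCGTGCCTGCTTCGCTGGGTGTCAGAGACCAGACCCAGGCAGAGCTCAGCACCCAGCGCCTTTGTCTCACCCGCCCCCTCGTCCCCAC

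Cdk6 had the most peaks of the 10 genes, with 8 cKO-specific and 1 cWT-specific, followed by Aurkb with 4 and 1 and Ccnd1 with 3 and 2. Ccnd2 and Rb1 had 4 and 0 each, Cdkn1a 3 and 1, and Ccnd3 1 and 0. Cdk4, Cdkn1b and Cdkn2c had none in either list. Thus 7 of the 10 genes had at least 1 cKO-specific peak, where 23.8% of all 21887 protein-coding genes did. At least 1 cWT-specific peak was found at 4 of the 10 (12.3% of all coding genes), and peaks of both lists at the same 4, Cdk6, Ccnd1, Cdkn1a and Aurkb (6.78%). At least 4 cKO-specific peaks were found at Cdk6, Ccnd2, Rb1 and Aurkb, a count that 1.7% of coding genes reach, and the 8 of Cdk6 are reached by 29 genes (0.132%). These genes were put together with such counts known, so the comparison with all genes is a description.

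**Figure D1:**
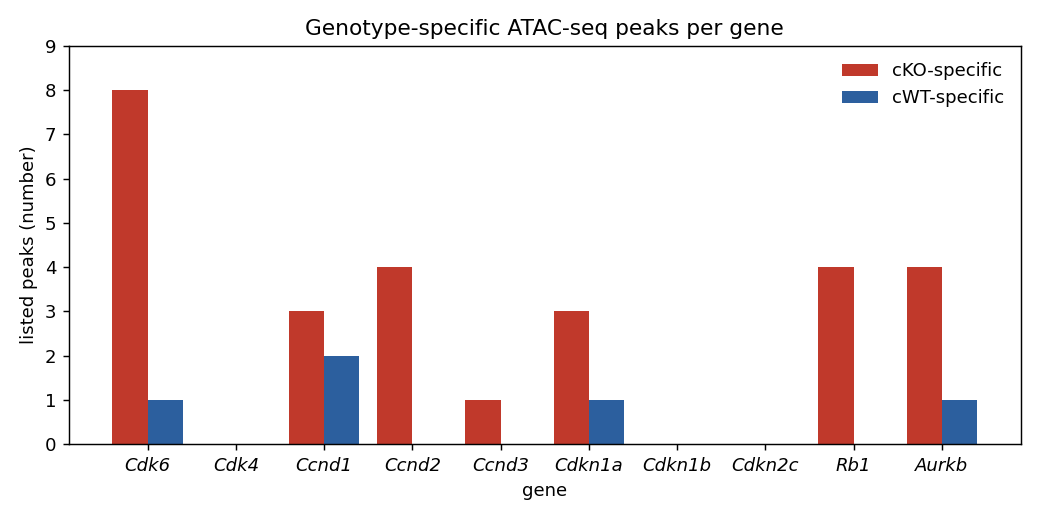
Number of cKO-specific (red) and cWT-specific (blue) listed peaks counted for each of the 10 genes; the vertical axis is a number of peaks in 1 list per genotype, so there are no error bars. Cdk6 stands at 8 and 1, and Cdk4, Cdkn1b and Cdkn2c have no bar.

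Among the 32 peaks, the cKO-specific share was 84.4% (interval 67.2% to 94.7%), and over all 12105 listed peaks it was 71.2%, which lies inside that interval. Without Cdk6 the share was 82.6% (61.2% to 95.05%). For single genes the intervals were too wide to tell a gene from the whole lists: the share was 88.9% at Cdk6 (51.8% to 99.7%), 80.0% at Aurkb (28.4% to 99.5%) and 60.0% at Ccnd1 (14.7% to 94.7%).

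A long gene with distant neighbours can collect more peaks than a short one, so each count was set beside the length of the stretch in which a peak would count for the gene. That stretch was 296.4 kb for Cdk6, and coding genes in the same of 10 groups by stretch length had a mean of 1.46 peaks over both lists; 45 of those 2189 genes, Cdk6 included, had at least 9. Aurkb stood further apart from genes with stretches of similar length. Its stretch was only 14.7 kb, the mean in its group of 2189 genes was 0.193 peaks, and Aurkb was the 1 gene there with as many as 5. This rank rests on the peaks as listed. With peaks of 1 list within 500 bp merged, Aurkb had 3 cKO-specific and 1 cWT-specific. Without the 2 peaks that touched tRNA genes it had 3 and 0. The rank was not worked out for these counts. The stretch was 40.2 kb for Cdkn1a, whose 4 peaks were reached by 22 of 2189 genes (group mean 0.391), and 117.3 kb for Ccnd1, whose 5 were reached by 46 of 2188 (0.780). Ccnd2 and Rb1, with 134.8 and 155.6 kb, fell in 1 group in which 167 of 2189 genes had at least 4 peaks (0.919). Ccnd3, with 101.9 kb and 1 peak, lay near its group's mean of 0.780. The 3 genes without a peak had stretches of 7.27 kb (Cdk4), 44.5 kb (Cdkn1b) and 75.6 kb (Cdkn2c), and group means of 0.141, 0.391 and 0.671, so a count of 0 is common at such lengths.

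**Figure D2:**
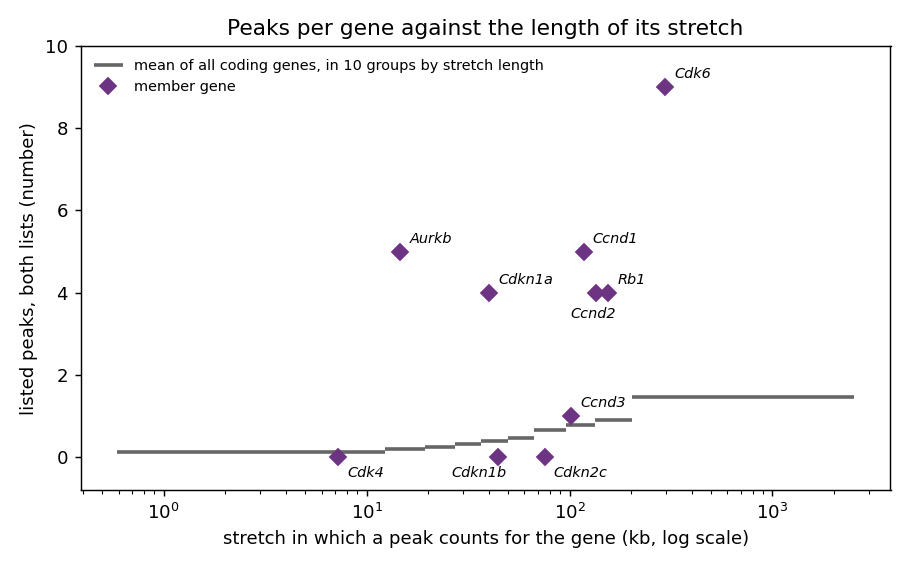
Listed peaks of both lists for each gene (diamonds, vertical axis) against the length of the stretch in which a peak would count for it (kb, log scale); grey lines give the mean of all protein-coding genes in each of 10 groups by stretch length. Aurkb, with 5 peaks in 14.7 kb, and Cdk6, with 9 in 296.4 kb, stand farthest above the grey lines. Peaks are counted as listed, with close pairs not merged and tRNA gene peaks included.

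Cdk6, on chromosome 5 (chr5:3341004-3531008), encodes the kinase partner of D cyclins that is prominent in blood-lineage cells. Its 8 cKO-specific peaks were spread over 216.3 kb, and none touched the promoter window of its annotated start (chr5:3343643-3343942). One lay 42762 bp before that start (chr5:3300838-3301424), inside the lncRNA gene Gm36470 and outside Cdk6. The other 7 lay inside Cdk6, from 15.4 to 173.0 kb after the start. The authors' signal, whose scale is not stated, was highest for the last of them, 27.4 (chr5:3516613-3517090), which exceeds or equals 90.7% of cKO-specific peaks. It was 23.2 at chr5:3369643-3369768 and 22.7 for the upstream peak, above or equal to 82.2% and 80.7% of the list. The remaining 5 had signals from 7.32 to 15.0, below the list's median of 16.5.

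The cWT-specific peak of Cdk6 (chr5:3363537-3363847, signal 8.27) lay 19.8 kb after the start. On one side a cKO-specific peak was 4104 bp away and on the other side 5795 bp, so peaks of both genotypes alternated in the first part of the gene. Near the other end, the peaks chr5:3490437-3490742 (signal 15.0) and chr5:3491061-3491448 (11.1) were separated by 318 bp and may be parts of 1 region; counted so, Cdk6 had 7 cKO-specific peaks. Peak names are numbered along the chromosome, which was read as the order in the genotype's full list. From the first to the last cKO-specific peak of Cdk6 there were 17 numbered peaks, of which these 8 were listed as specific and 9 were not, and both ends of that stretch are specific by construction.

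**Figure D3:**
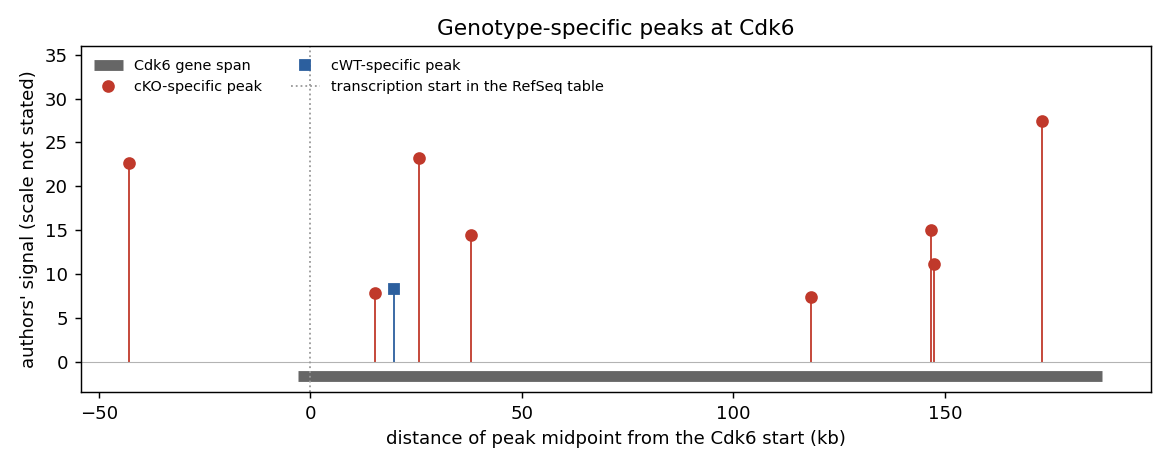
Peaks counted for Cdk6, placed by the distance of the midpoint from the annotated start (horizontal axis, kb) with the authors' signal (vertical axis, scale not stated); red circles are cKO-specific, the blue square is cWT-specific, and the grey bar is the gene. The peaks lie from 42762 bp before to 173.0 kb after the start, and none lies at the start itself.

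Cdk4 (chr10:127063535-127067288), the other kinase of this pair, had no listed peak. The closest peak of the cKO list was 7897 bp away (chr10:127075185-127075859) and counted for Agap2, a GTPase-activating protein gene, and the closest of the cWT list 286709 bp away. The absence of Cdk4 from these lists does not show closed chromatin, since the lists hold only part of the peaks numbered in each genotype and how they were chosen is not stated.

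The 3 D cyclin genes differed in where their peaks lay. At Ccnd1 (chr7:144929931-144939831) peaks of the lists alternated: going up the chromosome, a cKO-specific peak inside the overlapping gene LTO1 (chr7:144923093-144923292, signal 20.0) was followed by a cWT-specific peak inside Ccnd1 (chr7:144937591-144937786, 7.13). Beyond the gene came a cKO-specific peak 3698 bp from its end (chr7:144943451-144943607, 10.5), a cWT-specific peak at 40212 bp (chr7:144979924-144980162, 9.92) and a cKO-specific peak at 78529.5 bp (chr7:145018253-145018468, 17.2). No 2 of these 5 were closer than 5664 bp. A further cKO-specific peak, 108058 bp from Ccnd1, fell just outside the limit of 100 kb, and the farthest peak inside that limit was that of Ccnd2 described next.

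At Ccnd2 (chr6:127125162-127152188) all 4 peaks were cKO-specific, and the cWT list had nothing closer than 495374 bp. Inside the gene 3 followed each other in the cKO numbering: chr6:127142140-127142351 (signal 16.1) and chr6:127142522-127142721 (16.4), which are 170 bp apart, and chr6:127146039-127146250 (7.15), the lowest signal of the 27 cKO-specific peaks. The fourth lay 84578 bp beyond the gene (chr6:127236584-127236948, 14.9). With the close pair counted as 1 region, Ccnd2 had 3. Another cKO-specific peak nearest to Ccnd2, with a signal of 29.2, lay outside the limit at 114672 bp.

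At Ccnd3 (chr17:47505051-47599689) the only listed peak was cKO-specific and sat on an annotated start: chr17:47504927-47505194, with its midpoint 9.5 bp from that start. Its signal was 10.9, higher than or equal to 18.2% of the cKO-specific peaks. It covered 124 of the 250 bases printed above and 174 bases of the whole 300-base promoter window. The second annotated start of Ccnd3, at 47593467, had no listed peak.

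Of the inhibitors, Cdkn1a alone had listed peaks. Its peaks ran from upstream into the gene (chr17:29090979-29100722), with the cWT-specific one outermost: chr17:29070629-29071006 (signal 12.2), 20.2 kb before the gene. The cKO-specific peaks followed at 14630.5 bp (chr17:29076166-29076531, 9.68) and 8834.5 bp before it (chr17:29082076-29082213, 13.4). The last (chr17:29093624-29093828, 12.2) was inside the gene. The first 2 of these 4 peaks, 1 of each list and 5159 bp apart, lay inside Trp53cor1, the lncRNA gene known as lincRNA-p21, which is a transcriptional target of p53 like Cdkn1a itself. The intragenic peak covered the second annotated start of Cdkn1a, at 29093769, with its midpoint 43 bp before it, and took in 145 of the 250 bases printed above. The first annotated start, at 29090979, had no listed peak.

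Cdkn1b (chr6:134920401-134925525) and Cdkn2c (chr4:109660876-109666756) stood far from any listed peak. In the cKO list the closest peak was 95650 bp from Cdkn1b and 93514 bp from Cdkn2c, and both are nearer to other genes, Crebl2 and Faf1. In the cWT list it was 262716 bp from Cdkn1b and 114016 bp from Cdkn2c.

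Rb1 (chr14:73192858-73325951), whose protein is the substrate of the Cdk4 and Cdk6 kinases, had 4 cKO-specific peaks, and the cWT list had nothing closer than 60615 bp. The peak chr14:73325293-73325895 lay 357 bp inside the higher-coordinate end of the gene. It was the widest of the 32 peaks (603 bp) and had the highest signal, 34.9, above or equal to 97.3% of the cKO-specific list. A second lay 8226 bp beyond the same end (chr14:73333915-73334439, signal 25.7). The other 2 were deep inside Rb1, 46.2 and 52.2 kb from its other end: chr14:73238946-73239149 (11.9), which is also within the nested receptor gene Lpar6, and chr14:73244993-73245213 (13.4). Both are nearer to an end of Lpar6 (1156.5 and 4745 bp) than to an end of Rb1, so by the nearest end alone Rb1 had 2 peaks.

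**Figure D4:**
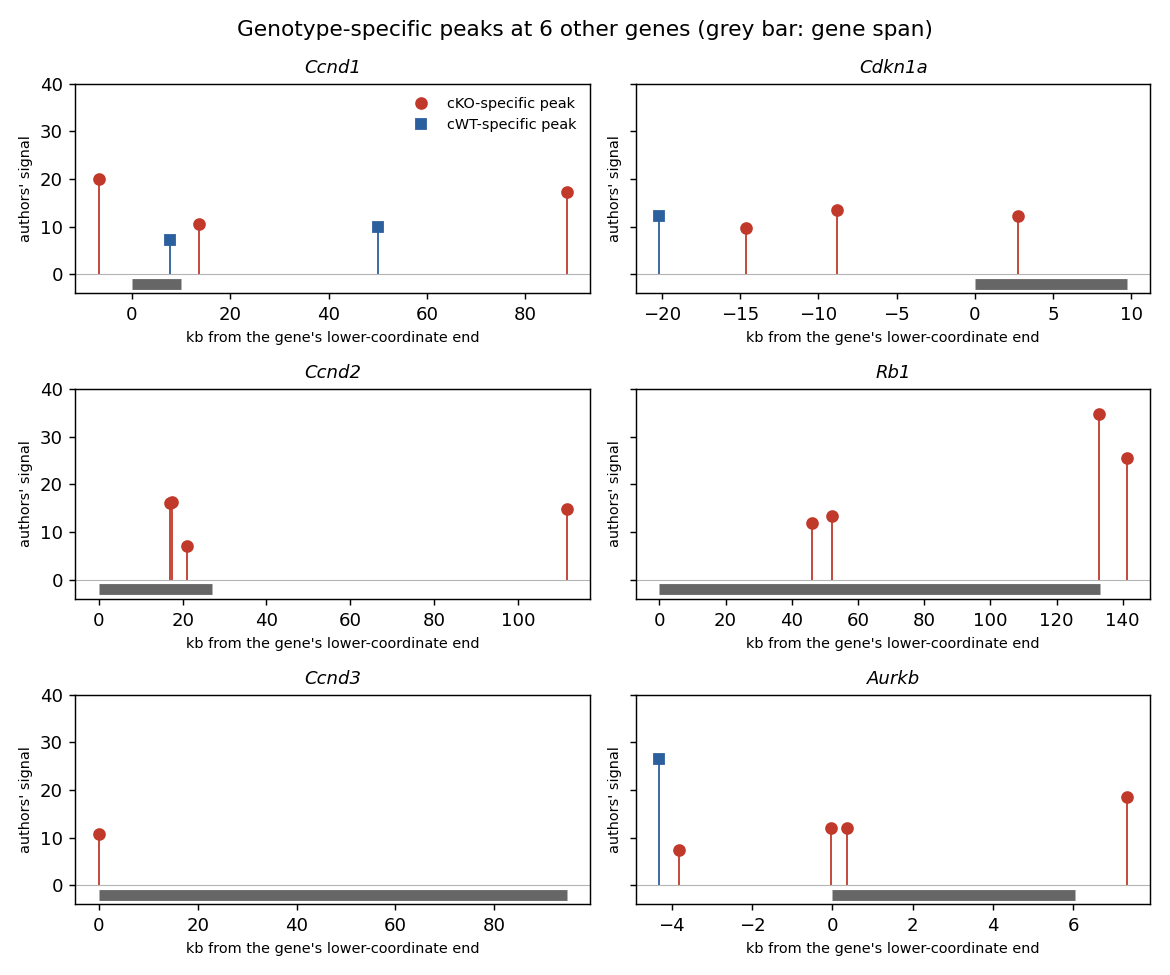
Peaks of the other 6 genes that have any, placed by the distance of the midpoint from the gene's lower-coordinate end (kb; the scale differs between panels) with the authors' signal; red circles are cKO-specific, blue squares cWT-specific, grey bars the genes. Rb1 has its highest signal, 34.9, at one end of the gene, and peaks of both lists alternate at Ccnd1. The Aurkb peaks lie just outside and at one end of that short gene.

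Aurkb (chr11:69045624-69051664) encodes Aurora B, the kinase of the chromosomal passenger complex that corrects chromosome attachment in mitosis. Its 4 cKO-specific peaks were consecutive in the cKO numbering, with no unlisted peak between them, over 11.4 kb. A pair lay at the lower-coordinate end of the gene, with midpoints 26 bp outside (chr11:69045497-69045699) and 373 bp inside (chr11:69045888-69046106). Both had the same signal, 11.96, and were 188 bp apart. In the whole cKO list 309 of 454 pairs of neighbours within 500 bp also had equal signals, so this pair may be 1 region listed as 2 entries. Counted so, Aurkb had 3 cKO-specific peaks. The close pairs of Cdk6 and Ccnd2 had unequal signals. A further cKO-specific peak lay 1294.5 bp beyond the other end of Aurkb (chr11:69052847-69053070, signal 18.5).

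The 2 remaining peaks of Aurkb sat on tRNA genes. Between Aurkb and the next coding gene, Ctc1, which encodes a telomere maintenance protein, the annotation has 7 tRNA genes. The cWT-specific peak chr11:69041219-69041421 covered n-TGtcc6 (chr11:69041278-69041349), with its midpoint 29 bp from an end of that gene. The cKO-specific peak chr11:69041714-69041918 covered n-TWcca7 (chr11:69041826-69041897). The 2 peaks were 292 bp apart, the closest of opposite lists among these genes. They differed in rank: the cWT-specific one had a signal of 26.5, above or equal to 92.7% of its list, and the cKO-specific one 7.34, above or equal to 2.08% of its list. In all, 25 of the 12105 listed peaks (0.207%) touched an annotated tRNA gene, 19 cKO-specific and 6 cWT-specific. Without these 2 peaks Aurkb had 3 cKO-specific and 0 cWT-specific peaks.

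By place, 4 of the 27 cKO-specific peaks (14.8%) lay within 1000 bp of an end of a coding gene: the pair at Aurkb and 1 each at Ccnd3 and Rb1. In the whole cKO list the share was 13.7%. Interiors of coding genes held 14 of 27 (51.9%, against 51.2%) and stretches between coding genes 9 of 27 (33.3%, against 35.1%). The 9 include peaks inside the lncRNA genes Gm36470 and Trp53cor1 and one on the tRNA gene n-TWcca7. Only the ends of a gene's span counted as gene ends, so the Cdkn1a peak over its second annotated start is among the 14. Of the 5 cWT-specific peaks 0 were at a gene end, 2 in an interior and 3 between coding genes. None of the 32 peaks overlapped a peak of the other list, where 5.27% of all cWT-specific and 2.14% of all cKO-specific peaks did. Within 1 kb, 1 of the 5 cWT-specific peaks, at Aurkb, had a cKO-specific neighbour (11.9% in the whole cWT list). The shares by place among the 27 peaks were thus close to those of their whole list.

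The authors' values did not all place the 27 cKO-specific peaks on the same side of their list. By signal most were low: the median was 13.4 over the 27 cKO-specific peaks and 16.5 over all 8615, with 19 of the 27 below the latter. For the 5 cWT-specific peaks it was 9.92, against 13.7 over all 3490, with 4 of 5 below. They were also narrow: the median width was 219 bp for the 27, against 314 bp, with 20 of 27 below. By the authors' score and p-value, which carry the same information, the 27 lay near the middle of the cKO list, with a median score of 39 against 36 and a median p-value of 0.804 against 0.818. Of the 27, 12 had a score below the list's median, and 15 a p-value below it. The 5 cWT-specific peaks had a median score of 11 against 21, with 4 of 5 below. None of the 27 and none of the 5 was among the peaks named primary (2.82% of the cKO and 1.38% of the cWT list).

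The authors' p-value, whose test is not stated in the sources used here, ran from 0.368 to 0.959 over the 27 cKO-specific peaks. It was up to 0.5 for 3 of them (12.1% in the whole list): 0.368 and 0.426 for the Cdk6 peaks at chr5:3516613-3517090 and chr5:3490437-3490742, and 0.480 for the peak 8226 bp beyond Rb1. In cWT it was up to 0.5 for 1 of 5, the tRNA gene peak near Aurkb (0.485; 6.16% in the whole list). The authors' adjusted p was 0.979 for each of the 27 and 0.981 for each of the 5. Signal and p-value did not rank the peaks alike. The peak of highest signal, at the end of Rb1 (34.9), had a p-value of 0.903, while the Ccnd3 peak, with a signal of 10.9, had 0.567. The same values, 0.979 and 0.981, are the medians of the whole lists, and the lowest adjusted p among all 12105 peaks was 0.194 in cKO and 0.231 in cWT, so these peaks did not differ from most others in this.

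**Figure D5:**
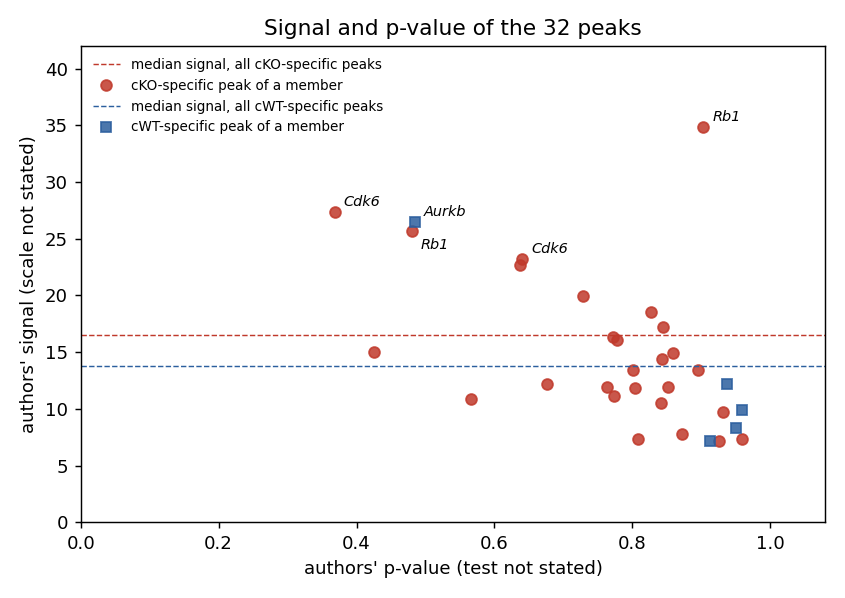
The authors' signal (vertical axis, scale not stated) against the authors' p-value (horizontal axis, test not stated) for the 27 cKO-specific (red circles) and 5 cWT-specific (blue squares) peaks; dashed lines are the median signals of the whole lists, 16.5 and 13.7. The Rb1 peak with the highest signal, 34.9, has a p-value of 0.903, and all peaks lie above 0.368 or at it.

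Promoter windows, from 250 bases before to 50 after a start, were found in the RefSeq table for 6 of the 10 genes, 9 windows in all; Ccnd1, Ccnd2, Rb1 and Aurkb were not among them. Listed peaks touched 2 of the 9, those of Cdkn1a and Ccnd3 printed above, and so 2 of the 27 cKO-specific peaks touched a window (7.42% of the cKO-specific peaks on chromosomes in the table). None of the 5 cWT-specific peaks did (9.13%). Peaks of Ccnd1, Ccnd2, Rb1 and Aurkb had no window of their own gene to touch, so these shares are not a like comparison. Whether the peaks at an end of Rb1 and Aurkb cover a promoter could not be told from the windows. On either strand, the Sp1 letters GGGCGG occurred in 6 of the 9 windows, against 35.7% of all 32851 windows, and CCAAT in 3 of 9, against 37.4%. The share of G and C was above the median of all windows, 52.7%, in each of the 9 except a Cdkn2c window (44.0%). Whether the Sp1 count goes beyond that content was not tested. In the part of the Cdkn1a window inside the peak GGGCGG begins at -104 and -46, counted in bases from the start, and in that of Ccnd3 its complement begins at -18. TATAAA was found in the window of Cdk6 alone (13.6% of all windows).

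No window of these genes held the E2F letters TTTCCCGC (1.07% of all windows) or TTTGGCGC (0.514%), the cell-cycle element TTTGAA (17.9%), the AP-1 letters TGANTCA (7.81%), the CRE letters TGACGTCA (1.79%) or the PU.1 letters GAGGAAGT (3.20%). The complement of the miR-137-3p seed, AGCAATA, was in 0 of 9 and in 2.16% of all windows. These counts say only which letters are in the windows.

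Other cell cycle genes had fewer peaks per gene than the 10. The 10 were put together with such counts known, so this contrast is a description only. Of 44 further cell cycle genes, 11 (25.0%) had a cKO-specific and 8 (18.2%) a cWT-specific peak, where 23.8% and 12.3% of all coding genes did, and 28 had neither. They held 18 cKO-specific and 8 cWT-specific peaks in all. Their median stretch was 45.6 kb, against 88.8 kb for the 10 genes above and 49.5 kb for all coding genes. Fbxw7, whose protein marks cyclin E for degradation, had 4 cKO-specific and 0 cWT-specific peaks, all inside the gene. E2f6, a repressor of the E2F family, had 2 and 1. Ccnb1, the mitotic cyclin B1 gene, and E2f4 had 1 and 1 each, and the phosphatase genes Cdc25a and Cdc25b, which activate cyclin-dependent kinases, had 2 and 0 each. At Ccnb1 both peaks were at the same end of the gene and overlapped, with a cKO-specific signal of 40.6 (chr13:100786392-100786896) and a cWT-specific signal of 39.8 (chr13:100786001-100786451).

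The pair of counts seen at Cdk6, 8 cKO-specific and 1 cWT-specific, was shared by 5 other coding genes: Aff1, Chn2, Nf1, Nfia and Prkch. Their stretches ran from 184.5 kb at Aff1 to 740.8 kb at Nfia, with Cdk6 at 296.4 kb between them. Babam2 (7 and 1), Bbs9 (8 and 0) and Bcor (7 and 1) differed from Cdk6 by 1 peak. The likeness is over 2 counts per gene and takes no account of the place or signal of the peaks.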

How the data were processed

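ATAC-seq libraries of 3 cKO and 3 cWT samples were grouped by their titles. The authors worked on GRCm38/mm10 with Bowtie2 (2.4.4), the peak caller MACS2 (2.2.7.1) and HOMER (4.11), per the submitters' processing notes. Not given in the sources used here: tool settings, the pooling of replicates and the choice of specific peaks. The deposited lists have no header: the score, the signal and the p-value and adjusted p-value that the authors deposited for each peak were read from layout and range. The authors' score equals -125 times log2 of the p-value, rounded down, in all 12105 peaks.

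Genes came from a RefSeq table of GRCm38.p6 (21887 protein-coding genes, mitochondrial genes left out), which gives spans without strand or exons, and promoter sequences and strands from RefSeq tables of the same build. Exon, intron and UTR classes were therefore not assigned. Coordinates are 1-based. A gene's stretch is its span plus all positions within 100 kb nearest to one of its ends, and all coding genes were divided into 10 groups by its length. Motifs were searched on both strands.

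The 10 genes, the lists and the descriptions were chosen with earlier results of these data known, and no test was run over them. The named genes were the 10, the 6 other cell cycle genes with the most peaks (ties in alphabetical order), the genes with the same counts as Cdk6, 3 that differ from it by 1 peak, and genes that hold or neighbour a peak. The result on tRNA genes was added after the peaks were seen. The counting script was tested on simulated data. Alternatives covered the distance, gene set, merging, p-value, score and placement. Python 3.11.15, numpy 2.4.6, pandas 2.3.3, scipy 1.17.1 and matplotlib 3.10.9 were used.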

Additional observations from a re-analysis of the deposited data

How the results depend on the processing

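No paired analysis was possible because the lists carry no values per library, and for the same reason no replicate could be left out. Over all 11 alternatives the cKO-specific share stayed inside its interval of 67.2% to 94.7%. The lowest share was 75.0%, at p-values up to 0.5 (3 cKO-specific and 1 cWT-specific peaks at 2 and 1 genes). Its own interval was 19.4% to 99.4%, too wide to show that the share is stable. At that limit the whole lists held 1042 cKO-specific and 215 cWT-specific peaks, while the share of 71.2% is over all listed peaks. The highest share was 93.8%, with a score at or above the list's median (15 and 1 peaks, with a cWT-specific peak at 1 gene). Inside the genes' spans only, there were 16 and 2 peaks, with cWT-specific peaks at 2 genes. Assignment among all annotated genes left 3 cWT-specific peaks at 2 genes, and a limit of 10 kb left 3. Of the other cell cycle genes, 4 had a cKO-specific and 3 a cWT-specific peak at p-values up to 0.5. With a window of 3000 bp 7 cKO-specific peaks were at a gene end. The number of cWT-specific peaks with a cKO-specific neighbour was 0 by overlap (5.27% in the whole cWT list) and 2 within 5 kb (18.5%). These settings differ in which peaks are admitted, in the gene a peak is counted for, or in how a peak is classed. The alternatives without tRNA gene peaks and without Cdk6 were chosen after seeing the data. Of 200 counts for single genes under these settings, 31 moved by over 1.5 times or fell to 0. Counts that were 0 in the main setting, such as those of Cdk4, Cdkn1b and Cdkn2c, stayed 0 throughout and make up many of the 200. At p-values up to 0.5, 10 counts moved and 10 did not. Of the counts above 0, only the cWT-specific count of Aurkb stayed the same there. Depth is unknown, so a gene absent from a list is not shown to lack open chromatin.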
